A study of Mus musculus with 12 samples.

Results

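A module of 44 genes of mitosis and the spindle checkpoint was followed through mouse CD8 T cells of 4 kinds. The genes came from a list of 45. Each had 1 probe set (the group of array probes that measures a gene) carrying that symbol alone, and all 44 were bright enough to be tested, out of 22180 genes on the array and 9862 tested. The remaining listed gene, Ccnb1, had no such probe set in the annotation used and was not analysed here.

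Mitosis divides copied chromosomes between daughter cells. CDK1 with its cyclins drives entry, kinesins and other motors build the spindle, kinetochores tie chromosomes to it, and Aurora and Polo kinases correct faulty attachments. The spindle checkpoint holds back the anaphase-promoting complex, and with it separase, until every kinetochore is attached. In T cells these genes are low at rest and are induced together after activation, when clones expand.

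The groups were Tc17 STAT3-/- cells, Tc17 WT cells, Tc1 STAT3-/- cells and Tc1 WT cells, with 3 Affymetrix arrays each. STAT3-/- cells came from Cd4cre+ STAT3fl/fl animals, in which Cre driven by Cd4 removes Stat3, the transcription factor downstream of the IL-6 receptor, in T cells. In all 4 groups naive CD8 T cells from spleen were activated with anti-CD3 (1 µg/ml) and anti-CD28 (3 µg/ml), and WT and STAT3-/- cells shared a culture, mixed 1:1 and later separated by allelic markers. Culture ran for 4 days: 3 days with TGF-beta plus IL-6 for Tc17 (IL-17-producing) cells, or with IL-12 for Tc1 (interferon-gamma-producing, cytotoxic) cells, then 1 day with IL-2. Each group had biological replicates 1 and 2 and a technical replicate 2, which was averaged with biological replicate 2 to give 2 samples. Which animals or cultures stand behind the replicates is not in the labels, and a p-value here covers no more than the spread among these samples, part of which may be technical.

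Values are log2 intensities relative to each array's median over the tested genes. These medians lay between 6.86 and 7.01 on 11 arrays and at 6.68 on the Tc17 WT technical array. That array also correlated least with the others (median correlation 0.933, against 0.961 to 0.986). In every group the technical array differed more from biological replicate 2 (SD 0.209 to 0.352) than biological replicate 1 did (0.144 to 0.192). The mitotic genes read higher on it than on biological replicate 2, by a median of 0.04 to 0.22 per group. Only sample 2 of each group includes a technical array, so the spread behind every p-value includes these differences. Stat3 itself read 7.59 to 7.93 on the deposited log2 scale in Tc17 STAT3-/- arrays, against 10.38 to 10.72 in Tc17 WT arrays, and 6.99 to 7.67 in Tc1 STAT3-/- arrays, against 9.77 to 10.13 in Tc1 WT arrays. All 8 CD8 T cell markers with a probe set were tested, at 7.74 or more on every array, and Cd8a read 11.05 or more everywhere. In Tc17 STAT3-/- against Tc17 WT cells 2 of the 8 (25.0%) were called lower, where 11.3% of all tested genes were, and 0 higher. Between Tc17 and Tc1 cells 1 of the 8 (12.5%) was called higher in WT, where 11.5% of all tested genes were. In STAT3-/- cells 1 (12.5%) was called lower in Tc17, where 1.27% of all tested genes were. Among markers of other cells, the B cell genes Ighm (1.65) and Cd79b (0.66) were higher in Tc17 STAT3-/- than in Tc17 WT cells. The B cell gene Ebf1 (-2.21), the myeloid gene Cd68 (-1.24) and 1 of 2 tested CD4 T cell markers (-0.36) were lower. From Tc1 to Tc17, the 3 tested B cell markers changed by -1.23 to 2.19 in WT and by 0.09 to 0.81 in STAT3-/- cells. The only tested myeloid marker, Cd68, changed by 0.23 in WT and by -0.98 in STAT3-/- cells. Of the 2 tested CD4 T cell markers, 1 was called higher in Tc17 than in Tc1 cells in WT (0.38) and 0 in STAT3-/- cells. The B cell marker Ms4a1 stayed between 2.34 and 2.65 on every array. Summed log2 levels of the 6 B cell markers with a probe set were 31.5 to 31.8 in Tc17 STAT3-/- and 31.1 to 31.5 in Tc17 WT arrays. In these sums the opposite changes of Ighm, Cd79b and Ebf1 offset one another, so they do not show similar B cell content. Sums of the 10 myeloid markers were 37.2 to 37.5 in Tc17 STAT3-/- and 38.1 to 39.5 in Tc17 WT arrays. No marker was listed at 0, and the part of these genes in the results below was not tested.

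The first question was whether loss of STAT3 changed mitotic genes in Tc17 cells. In Tc17 STAT3-/- cells 17 of 44, or 38.6%, were higher than in Tc17 WT cells and 0 were lower, at a Benjamini-Hochberg adjusted p under 0.05 from limma (a linear model that shares variance between genes) over all tested genes. Over all tested genes 11.0% were called higher and 11.3% lower. The members were chosen with earlier results of these data known, so their shares, here and below, are descriptions and not an independent test. The median change was 0.31 on the log2 scale, against -0.01 over all tested genes, 42 of 44 changes were positive, and the members ranged from -0.11 to 0.56. For 23 of 44 every STAT3-/- array lay above every WT array, as it did for 19.9% of all tested genes. In these bulk RNA samples, a different number of cells in mitosis and a different amount of mitotic RNA per cell cannot be told apart.

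The number of calls moved with the samples and the scaling, while the median change stayed positive, from 0.22 to 0.49. The count was 3 without Tc17 STAT3-/- replicate 1, 2 without Tc17 STAT3-/- replicate 2, 8 without Tc17 WT replicate 1 and 9 without either Tc1 WT sample, and it was 26 with all technical arrays left out. On the deposited scale, where the median of all tested genes itself sat 0.114 higher in Tc17 STAT3-/- cells, 32 members were called higher and 72.7% of all called genes were higher, against 1085 of 2195 with the array median removed. Within the biological arrays alone the median difference of the members was 0.31 with 43 positive, and within the technical arrays alone it was 0.15 with 31 positive. The members called higher with all technical arrays left out, but not with the settings used, were Cdk1, Cenpf, Ect2, Foxm1, Kif15, Kif22, Nuf2, Nusap1, Plk1 and Ube2c. Kif20a lost its call in that setting. Here and below, leaving out either sample of a group outside the comparison gave the same fit, since each group has 2 samples. Such a removal leaves each change as it was and alters only the shared variance and degrees of freedom.

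**Figure D1:**
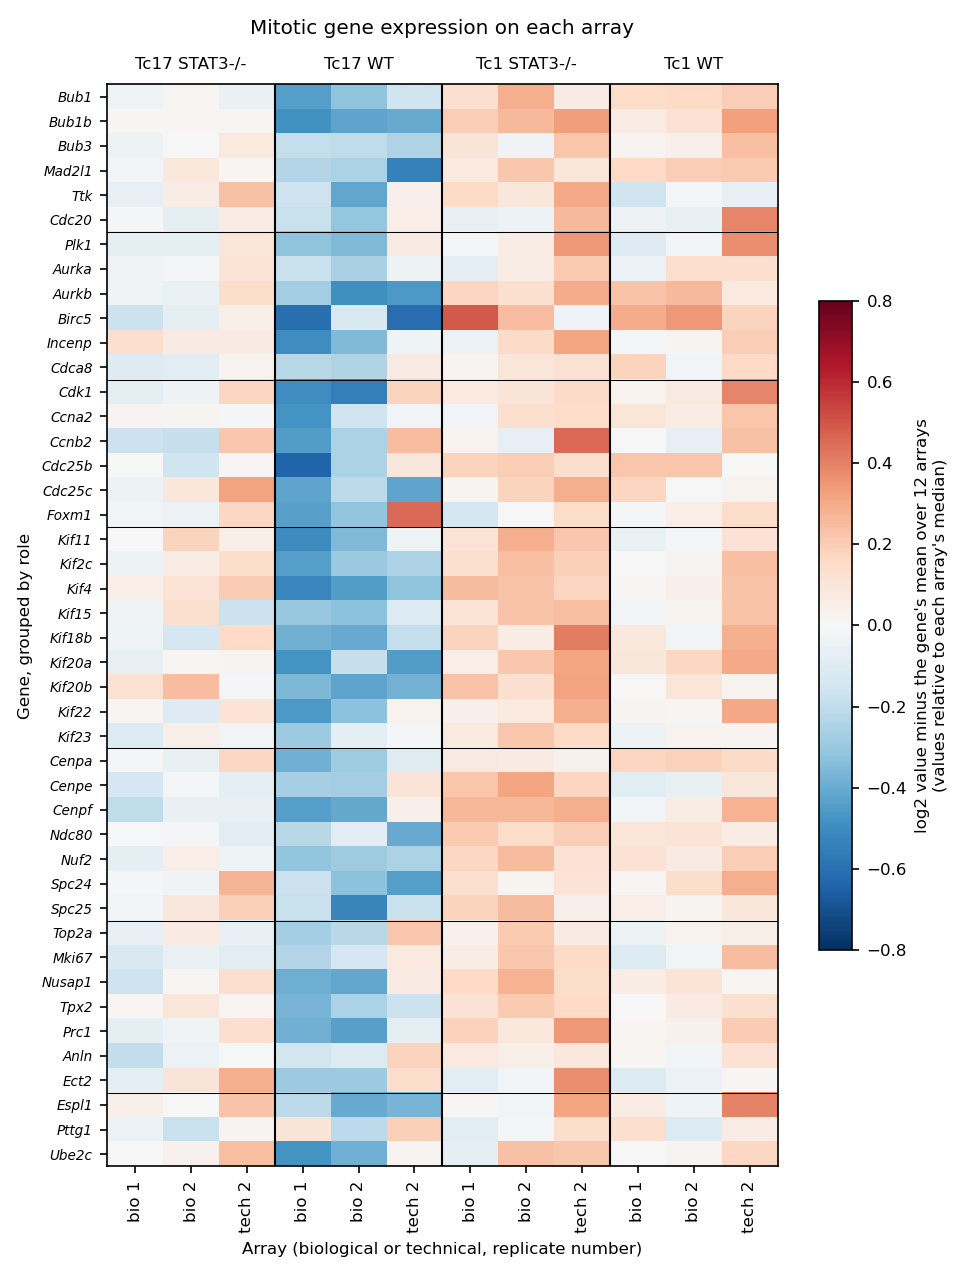
Relative log2 values of the 44 genes (rows, grouped by role), each centred on its own mean over 12 arrays (columns, by group, Tc17 STAT3-/- leftmost). Both biological arrays of Tc17 WT are low across the map, with array medians of the centred values of -0.36 and -0.30, whereas the Tc17 WT technical array sits at -0.04 and the 3 Tc17 STAT3-/- arrays at -0.04 to 0.07.

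Promoters of members that were raised in Tc17 STAT3-/- cells are shown for 5 genes, to display the elements that most members have in common, as RefSeq windows of build GRCm38.p6 running from 250 bases before the annotated start to 50 after it. Such windows were found for 36 of 44 members. The 5 genes were taken in order of change among the called members with a window, leaving out a chromosome excluded by plan. They were not picked by their motifs. Capitals mark the cell cycle genes homology region (CHR, TTTGAA or TTCGAA) and the CCAAT box, each on either strand, so that ATTGG and TTCAAA are the same elements read from the opposite strand. The CHR is known as the element through which the DREAM complex represses and B-MYB with FOXM1 activates late cell cycle genes, and CCAAT is bound by NF-Y.
Kif4, chrX:100625815-100626114, plus strand: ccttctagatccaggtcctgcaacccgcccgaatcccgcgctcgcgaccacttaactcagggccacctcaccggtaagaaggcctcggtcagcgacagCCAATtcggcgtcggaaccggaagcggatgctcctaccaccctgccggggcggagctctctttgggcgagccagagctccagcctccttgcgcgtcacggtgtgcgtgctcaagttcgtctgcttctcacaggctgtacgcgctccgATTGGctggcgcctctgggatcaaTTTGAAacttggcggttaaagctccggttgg
Kif20b, chr19:34922108-34922407, plus strand: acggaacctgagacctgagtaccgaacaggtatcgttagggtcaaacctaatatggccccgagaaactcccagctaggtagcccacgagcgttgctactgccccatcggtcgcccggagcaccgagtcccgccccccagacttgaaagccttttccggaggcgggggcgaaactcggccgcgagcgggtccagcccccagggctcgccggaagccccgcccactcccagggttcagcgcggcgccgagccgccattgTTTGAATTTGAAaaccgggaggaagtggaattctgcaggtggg
Bub1b, chr2:118597961-118598260, plus strand: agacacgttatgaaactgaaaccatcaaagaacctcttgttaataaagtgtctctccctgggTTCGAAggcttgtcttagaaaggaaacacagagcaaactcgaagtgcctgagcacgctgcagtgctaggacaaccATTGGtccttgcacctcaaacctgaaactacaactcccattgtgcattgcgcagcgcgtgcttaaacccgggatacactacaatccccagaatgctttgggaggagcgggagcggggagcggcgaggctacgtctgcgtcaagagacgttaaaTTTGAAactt
Kif11, chr19:37376132-37376431, plus strand: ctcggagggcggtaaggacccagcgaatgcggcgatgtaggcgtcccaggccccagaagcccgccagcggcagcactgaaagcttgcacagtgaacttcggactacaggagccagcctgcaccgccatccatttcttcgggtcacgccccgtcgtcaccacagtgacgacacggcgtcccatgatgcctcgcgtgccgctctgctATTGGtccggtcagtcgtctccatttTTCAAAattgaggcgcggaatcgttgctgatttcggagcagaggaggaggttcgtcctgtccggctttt
Espl1, chr15:102296043-102296342, plus strand: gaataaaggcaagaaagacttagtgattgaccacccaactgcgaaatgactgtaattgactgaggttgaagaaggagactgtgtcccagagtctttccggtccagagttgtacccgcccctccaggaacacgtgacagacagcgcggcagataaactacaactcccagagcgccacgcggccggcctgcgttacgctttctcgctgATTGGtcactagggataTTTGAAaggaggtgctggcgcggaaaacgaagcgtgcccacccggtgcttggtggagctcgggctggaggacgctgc
Counting from the annotated start, Kif11 has CCAAT at -45 to -41 and a CHR at -19 to -14, and Espl1 has CCAAT at -44 to -40 and a CHR at -27 to -22. In Kif4 the CHR follows the start, at 20 to 25, and in Kif20b 2 copies lie end to end from 8 to 19 without any CCAAT in the window. A CHR was present in 30 of 36 member windows (83.3%), against 13.8% of 7872 windows of tested genes. A CCAAT box was present in 26 (72.2%, against 38.8%), and both in 25 (69.4%, against 5.9%). Among the 17 members raised in Tc17 STAT3-/- cells, 12 had a window and 11 of these held a CHR (91.7%). The symmetric STAT letters TTCNNNGAA were found in 0 of 36 member windows, against 6.9% of those of tested genes. These are matches of letters and do not show binding.

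Kinesins, the motors that move along or shorten spindle microtubules, held the largest 2 changes of the module, and 6 of 9 rose in Tc17 STAT3-/- cells. Kif4, a motor that travels on chromosome arms and to the central spindle, read 0.80, 0.86 and 0.95 in Tc17 STAT3-/- arrays (here and below in the order biological replicate 1, biological replicate 2, technical replicate 2), against 0.23, 0.30 and 0.43 in Tc17 WT arrays. The groups did not overlap, and Tc1 arrays of both genotypes read 0.76 or more. The change was 0.56 ± 0.09 (SE, 2 samples per group here and throughout), a 1.47-fold rise, with a limma adjusted p of 0.00367. Kif20b, a motor of cytokinesis, read 1.18, 1.31 and 1.05 in Tc17 STAT3-/- arrays, against 0.70, 0.64 and 0.68 in Tc17 WT arrays. Again no array overlapped, and the change was 0.50 ± 0.08 (limma adjusted p = 0.00286). Kif4 and Kif20b were called under every one of the 25 alternative settings run, the only members of which that held in this comparison.

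Kif11, the motor that pushes spindle poles apart, read 2.52, 2.70 and 2.57 in Tc17 STAT3-/- arrays, against 2.02, 2.17 and 2.49 in Tc17 WT arrays, a change of 0.40 ± 0.12 (limma adjusted p = 0.0398). The Tc17 WT technical array came near the STAT3-/- arrays, and the biological arrays lay well below. Kif2c, which takes microtubules apart at centromeres, changed by 0.38 ± 0.10 (limma adjusted p = 0.0257), and Kif20a, which carries the Aurora B complex to the central spindle, by 0.37 ± 0.11 (adjusted p = 0.0359). Kif18b, which trims astral microtubules, changed by 0.34 (adjusted p = 0.0199). Kif15, Kif22 and Kif23, further motors of the spindle, had log2 differences of 0.24, 0.31 and 0.12 and did not pass. Kif2c and Kif18b each lost their call when replicate 1 of Tc17 WT or 1 of the Tc17 STAT3-/- samples was removed (adjusted p up to 0.182 and 0.138), and the calls of Kif11 and Kif20a were lost then and also without either Tc1 WT sample (0.214 and 0.196 at most).

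**Figure D2:**
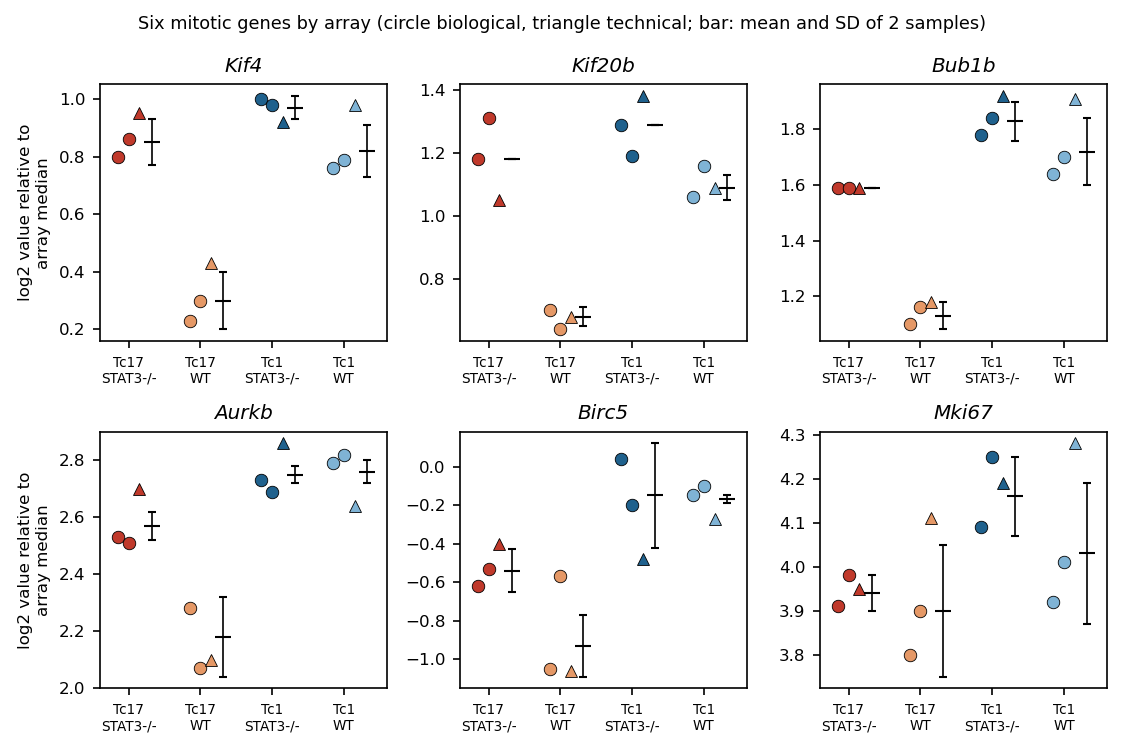
Relative log2 values of 6 mitotic genes on each array (points) by group, with the mean of the 2 samples (bar) and their SD. For Kif4 every Tc17 STAT3-/- array lies at 0.80 or above and every Tc17 WT array at 0.43 or below, while Mki67 reads 3.91 to 3.98 in Tc17 STAT3-/- and 3.80 to 4.11 in Tc17 WT arrays.

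Of 6 genes of the spindle checkpoint, 3 rose in Tc17 STAT3-/- cells. Bub1b, which encodes BUBR1, the checkpoint protein that holds CDC20 inactive, read 1.59 on each Tc17 STAT3-/- array, against 1.10, 1.16 and 1.18 in Tc17 WT arrays. The groups did not overlap, and the change was 0.46 ± 0.09 (limma adjusted p = 0.00806). Mad2l1, which encodes the CDC20-binding protein MAD2, changed by 0.33 (adjusted p = 0.0320), and Bub1, a kinase of the kinetochore, by 0.31 (adjusted p = 0.0395). The log2 differences of Bub3, their binding partner (0.20), of the kinase Ttk (0.22) and of Cdc20, the target of the checkpoint and activator of the anaphase-promoting complex (0.15), did not pass. The Bub1b call was lost only without one or the other Tc17 STAT3-/- sample (adjusted p 0.0607 and 0.0625), among the samples left out in turn. Mad2l1 lost its call without either Tc17 STAT3-/- sample, replicate 2 of Tc17 WT or either Tc1 WT sample. Bub1 lost its call without either Tc17 STAT3-/- sample, replicate 1 of Tc17 WT or either sample of a Tc1 group.

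Among mitotic kinases and the chromosomal passenger complex, 2 of 6 rose. Aurkb, the kinase of that complex, read 2.53, 2.51 and 2.70 in Tc17 STAT3-/- arrays, against 2.28, 2.07 and 2.10 in Tc17 WT arrays. All STAT3-/- values lay above all WT values, with a change of 0.39 ± 0.09 (limma adjusted p = 0.0182). Incenp, the scaffold that activates Aurora B, read 1.47, 1.40 and 1.40 in Tc17 STAT3-/- arrays, against 0.84, 0.98 and 1.30 in Tc17 WT arrays. It changed by 0.45 ± 0.13 (adjusted p = 0.0377), and here the Tc17 WT technical array lay far above the biological ones. The other subunits did not pass: Birc5 (survivin) had a difference of 0.39 with an adjusted p of 0.0757, and Cdca8 (borealin) one of 0.09. Plk1 and Aurka, kinases of the centrosome and spindle poles, had differences of 0.20 and 0.17, also short of the threshold. Removal of replicate 2 of Tc17 WT or of 1 of the Tc17 STAT3-/- samples ended the Aurkb call (adjusted p up to 0.130), and Incenp lost its call without either sample of Tc1 WT or of Tc17 STAT3-/-, or replicate 1 of Tc17 WT (up to 0.182).

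In the group that starts mitosis only Cdc25c passed, 1 of 6. This phosphatase, which activates CDK1, read -0.15, -0.02 and 0.21 in Tc17 STAT3-/- arrays, against -0.53, -0.32 and -0.53 in Tc17 WT arrays, without overlap. It changed by 0.45 ± 0.12 (limma adjusted p = 0.0256), and the call was lost without Tc17 STAT3-/- replicate 2 or replicate 1 of Tc17 WT (adjusted p 0.0804 to 0.190). Cdk1, the kinase that starts mitosis, read 1.38, 1.42 and 1.63 in Tc17 STAT3-/- arrays, against 0.96, 0.91 and 1.64 in Tc17 WT arrays, a difference of 0.34 that did not pass (adjusted p = 0.0821). Foxm1, the transcription factor of late cell cycle genes, read 0.35, 0.33 and 0.54 in Tc17 STAT3-/- arrays, against -0.06, 0.06 and 0.83 in Tc17 WT arrays. For Cdk1 and Foxm1 the Tc17 WT technical array was the highest of the 6 Tc17 arrays, and the biological WT arrays were the lowest. With all technical arrays left out, both were called: Cdk1 at 0.47 (limma adjusted p = 0.00160) and Foxm1 at 0.34 (adjusted p = 0.0156). The cyclins Ccna2 and Ccnb2 had differences of 0.30 and 0.15 and the phosphatase Cdc25b one of 0.32, none past the threshold; that of Foxm1 was 0.20.

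Genes of centromere and kinetochore were called in 2 of 7 cases: Cenpa, the histone H3 variant that marks centromeres, changed by 0.31 (limma adjusted p = 0.0421) and Spc25, a subunit of the NDC80 complex that grips microtubules, by 0.32 (adjusted p = 0.0424). The other NDC80 subunits had log2 differences of 0.21 (Ndc80), 0.26 (Nuf2) and 0.33 (Spc24), with adjusted p-values of 0.0914, 0.0511 and 0.0618. Cenpe, a kinetochore motor, and Cenpf, a large coat protein, had differences of 0.09 and 0.18 and did not pass. Of 7 genes for chromosome structure, spindle and cytokinesis, 2 passed: Tpx2, the activator of Aurora A, with 0.33 (adjusted p = 0.0317), and Prc1, which bundles the central spindle, with 0.31 (adjusted p = 0.0412). Nusap1, which bundles microtubules, and Ect2, the activator of RhoA in cytokinesis, both had a difference of 0.24 that did not pass. At anaphase onset 1 of 3 rose. Espl1, which encodes separase, the protease that opens cohesin rings, read 0.60, 0.55 and 0.78 in Tc17 STAT3-/- arrays, against 0.34, 0.15 and 0.18 in Tc17 WT arrays, with no overlap and a change of 0.38 ± 0.10 (adjusted p = 0.0275). Ube2c, the ubiquitin carrier of the anaphase-promoting complex, had a difference of 0.40 with an adjusted p of 0.0619. The calls of Cenpa, Prc1 and Spc25 were each lost without either Tc17 STAT3-/- sample or either sample of a Tc1 group. They were also lost without 1 Tc17 WT sample, replicate 1 for Cenpa and Prc1 and replicate 2 for Spc25. Those of Tpx2 and Espl1 were each lost without either Tc17 STAT3-/- sample. For Tpx2 this was also so without Tc17 WT replicate 1, and for Espl1 without Tc17 WT replicate 2.

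Some widely used proliferation markers did not pass the test. Mki67, the source of the Ki-67 antigen, read 3.91, 3.98 and 3.95 in Tc17 STAT3-/- arrays, against 3.80, 3.90 and 4.11 in Tc17 WT arrays, which overlap. Its change was 0.04 ± 0.11 with a 95% interval of -0.21 to 0.29 and a limma adjusted p of 0.840. Top2a, the topoisomerase that untangles sister chromatids, had a difference of 0.11. The only negative values were those of Pttg1, which encodes securin, the inhibitor of separase, at -0.11, and Anln, a scaffold of the contractile ring, at -0.05; neither passed, and both turned positive on the deposited scale (0.01 and 0.07).

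**Figure D3:**
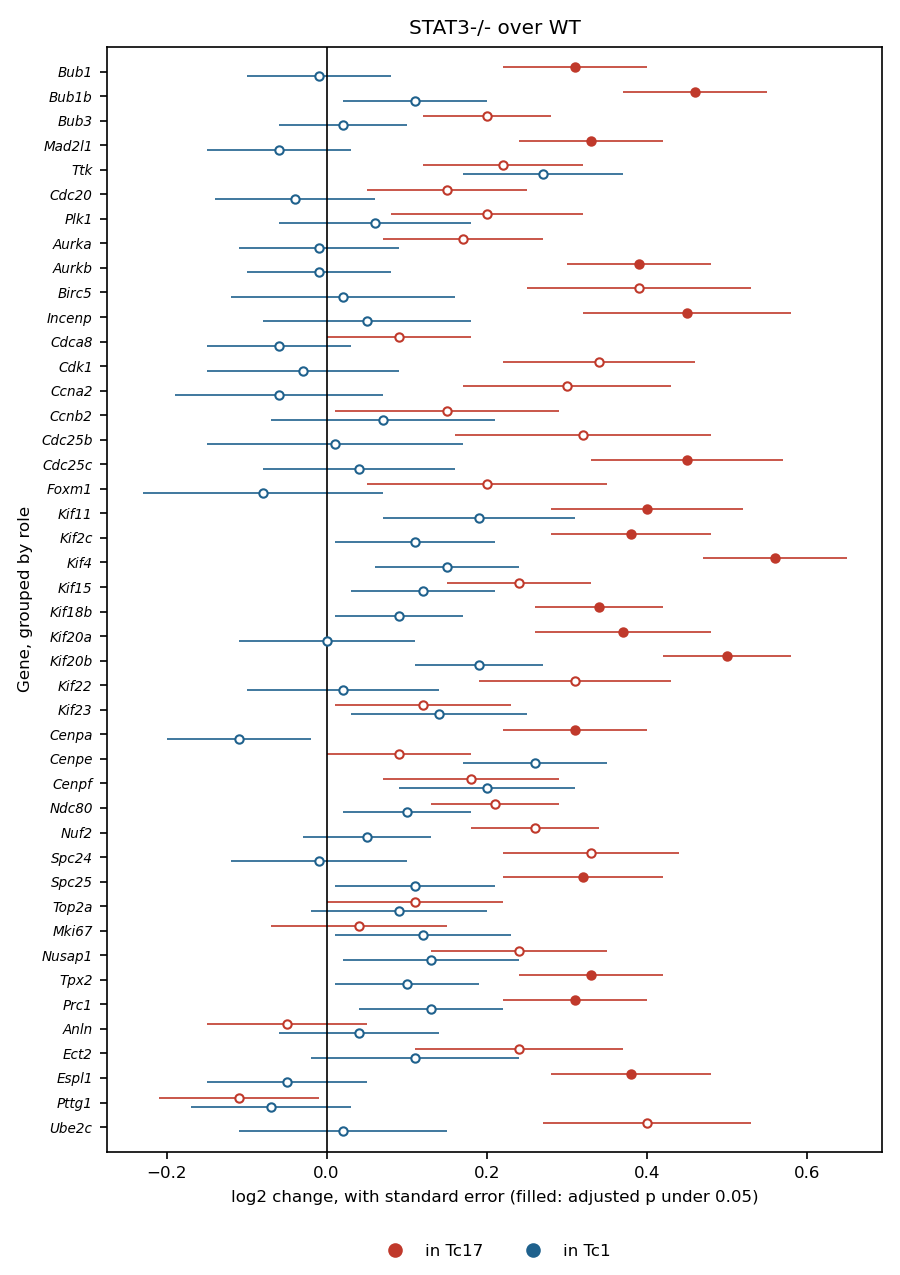
Log2 change with its standard error for STAT3-/- over WT in Tc17 and in Tc1 cells, one line per gene, grouped by role; filled points had an adjusted p under 0.05. In Tc17 17 points are filled, all to the right of 0, and in Tc1 0 are filled, with values from -0.11 to 0.27.

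In Tc1 cells limma called 0 of 44 members for genotype, where 0.0913% of all tested genes were called in either direction. At an unadjusted p under 0.05 there were 3 (Ttk, Cenpe and Kif20b), as for 4.25% of all tested genes, the count of calls was also 0 under every alternative run, and the lowest adjusted p was 0.998. The median change was 0.05, with 30 of 44 positive. For 6 of 44 (13.6%) every Tc1 STAT3-/- array lay above every Tc1 WT array, where 4.79% of all tested genes did. For 1 (2.3%) every Tc1 STAT3-/- array lay below, where 4.08% of all tested genes did. Kif4 read 1.00, 0.98 and 0.92 in Tc1 STAT3-/- arrays, against 0.76, 0.79 and 0.98 in Tc1 WT arrays, which overlap. Its change was 0.15 with a 95% interval of -0.06 to 0.36. For Bub1b the change was 0.11 (95% interval -0.10 to 0.31), and for Aurkb -0.01 (-0.22 to 0.20).

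Whether the genotype effect differed between the cultures was tested directly, as the Tc17 change minus the Tc1 change. Limma called 0 of 44 members, against 6.51% of all tested genes, and 10 had an unadjusted p under 0.05, where 22.1% of all tested genes did. The median difference was 0.22, with 37 of 44 positive. Cenpa came closest: it read 1.59, 1.55 and 1.77 in Tc17 STAT3-/- arrays, against 1.22, 1.32 and 1.51 in Tc17 WT arrays, and 1.68, 1.67 and 1.64 in Tc1 STAT3-/- arrays, against 1.78, 1.79 and 1.76 in Tc1 WT arrays. STAT3-/- values were thus above WT values in Tc17 and below them in Tc1, a difference of 0.42 ± 0.13 with a limma adjusted p of 0.0958. The count of calls was 6 with all technical arrays left out (Aurkb, Cdk1, Cenpa, Foxm1, Incenp and Kif20b), 2 with only that of Tc17 WT left out (Cdk1 and Cenpa), 1 without Tc17 WT replicate 1 (Aurkb) and 2 without Tc17 WT replicate 2 (Cdc25b and Cenpa). It was 5 with the median of all genes or of all probe sets subtracted in place of that of the tested genes (Bub1b, Cenpa, Incenp, Kif20a and Kif4 each time), and 1 with the kind of array as a term (Kif4). It was 2 on the deposited scale (Cenpa and Kif4), where 65.4% of all called genes were positive, against 271 of 642 with the array median removed.

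The second axis of the design set Tc17 against Tc1 culture. In WT cells 26 of 44 members (59.1%) were called lower in Tc17 and 0 higher, where 11.3% of all tested genes were called lower and 11.5% higher. All 44 changes were negative, from -0.77 to -0.01, with a median of -0.38. For 23 members every Tc17 WT array lay below every Tc1 WT array, as for 19.0% of all tested genes. On the deposited scale 35 were called lower and 28.0% of all called genes were higher, against 1139 of 2254 with the array median removed. The count was 13 without Tc1 WT replicate 1, 9 without Tc1 WT replicate 2, 15 without Tc17 WT replicate 1 and 17 without either Tc17 STAT3-/- sample. Within the technical arrays alone the median was -0.27 with 34 negative, and within the biological arrays -0.39 with 44 negative.

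The lowest value in Tc17 WT relative to Tc1 WT cells was that of Birc5, an inhibitor of apoptosis as well as a passenger subunit. It read -1.05, -0.57 and -1.06 in Tc17 WT arrays, against -0.15, -0.10 and -0.27 in Tc1 WT arrays, without overlap. The change was -0.77 ± 0.14 (limma adjusted p = 0.00493). Bub1b read 1.64, 1.70 and 1.91 in Tc1 WT arrays, all above the Tc17 WT values given earlier, with a change of -0.59 ± 0.09 (adjusted p = 0.00252). Aurkb, at 2.79, 2.82 and 2.64 in Tc1 WT arrays, changed by -0.58 ± 0.09 (adjusted p = 0.00303). Kif20a changed by -0.56 ± 0.11 (adjusted p = 0.00675) and Kif4 by -0.52 ± 0.09 (adjusted p = 0.00481). The Kif20a call was lost without Tc1 WT replicate 2 (adjusted p = 0.0550), while Birc5, Bub1b, Aurkb and Kif4, with Bub1, Mad2l1, Kif18b and Nuf2, were called under all 25 alternatives.

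By role, the genes lower in Tc17 WT cells were 4 of 6 in the spindle checkpoint, 2 of 6 among kinases and passenger proteins, 4 of 6 around CDK1, 7 of 9 kinesins, 6 of 7 at centromere and kinetochore, 2 of 7 of the chromosome, spindle and cytokinesis group and 1 of 3 at anaphase onset. At the kinetochore all 4 subunits of the NDC80 complex passed, between -0.41 (Nuf2) and -0.32 (Spc25), together with Cenpa and Cenpf. Of these, Nuf2 kept its call without any 1 sample and Cenpa lost it only without Tc1 WT replicate 1 (limma adjusted p = 0.0512). Ndc80 lost it without either Tc1 WT sample (up to 0.0960), and Spc24 without 5 samples, both of Tc1 WT, both of Tc17 STAT3-/- and Tc17 WT replicate 2 (up to 0.200). Spc25 and Cenpf lost it without 7 of the 8, all but replicate 1 of Tc17 WT for Spc25 and all but replicate 2 of Tc17 WT for Cenpf (up to 0.168 and 0.206). Mki67, Top2a and Pttg1 again stayed short of the threshold, at -0.13, -0.14 and -0.01.

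**Figure D4:**
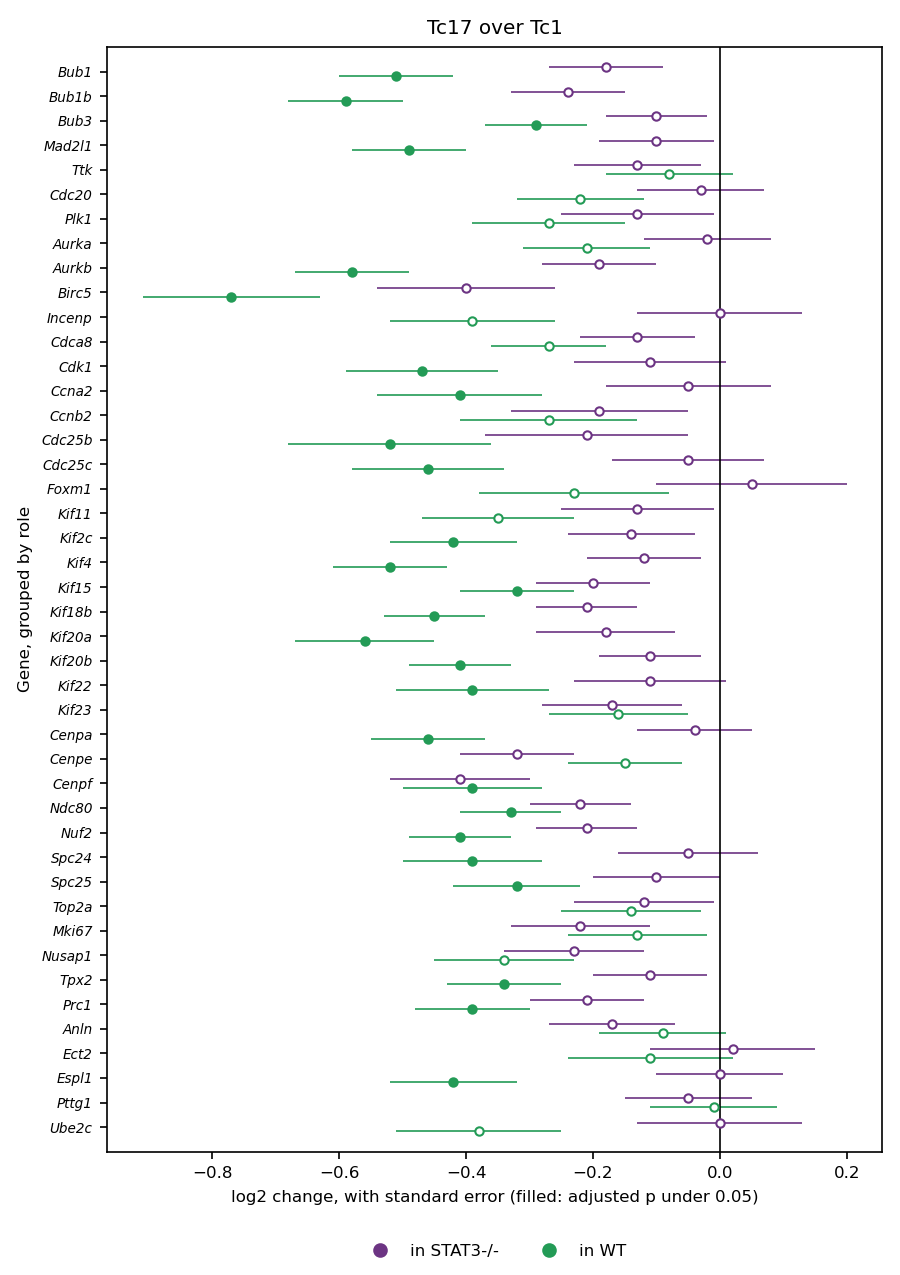
Log2 change with its standard error for Tc17 over Tc1 in STAT3-/- and in WT cells, one line per gene, grouped by role; filled points had an adjusted p under 0.05. In STAT3-/- cells 0 points are filled, with values from -0.41 to 0.05, and in WT cells 26 are filled, all to the left of 0.

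Without STAT3, limma called 0 of 44 members between Tc17 and Tc1 cells, where 2.52% of all tested genes were called. At an unadjusted p under 0.05 there were 7, where 12.2% of all tested genes were, and with the technical arrays left out 2 were called lower, Cenpe (-0.34) and Cenpf (-0.40). The median change was -0.13, with 40 of 44 negative. For 13 of 44 (29.5%) every Tc17 STAT3-/- array lay below every Tc1 STAT3-/- array, as for 9.88% of all tested genes. Cenpf, the member with the largest absolute change, read 0.84, 0.98 and 0.98 in Tc17 STAT3-/- arrays, against 1.31, 1.31 and 1.33 in Tc1 STAT3-/- arrays, which do not overlap. Its change of -0.41 had an adjusted p of 0.138, and its change in WT cells was -0.39.

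Ordered by group mean, Tc17 WT was the lowest of the 4 groups for 42 of 44 members and Tc17 STAT3-/- for the other 2, Pttg1 and Anln. The highest group was Tc1 STAT3-/- for 28 members, Tc1 WT for 14 and Tc17 STAT3-/- for 2, and limma called no member between the Tc1 groups, nor between Tc17 STAT3-/- and Tc1 STAT3-/- cells. Tc17 STAT3-/- cells were not tested against Tc1 WT cells. Of the 17 members called for genotype in Tc17, 15 (88.2%) were also among the 26 called between WT cultures (57.7%). Both comparisons use the same Tc17 WT arrays, so a low reading there enters both. The matching overlap over all tested genes was not computed, so whether 88.2% is particular to these members cannot be told. Incenp and Kif11 were called for genotype alone, at -0.39 and -0.35 between WT cultures. The 16 members called in neither were Anln, Aurka, Ccnb2, Cdc20, Cdca8, Cenpe, Ect2, Foxm1, Kif23, Mki67, Nusap1, Plk1, Pttg1, Top2a, Ttk and Ube2c.

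**Figure D5:**
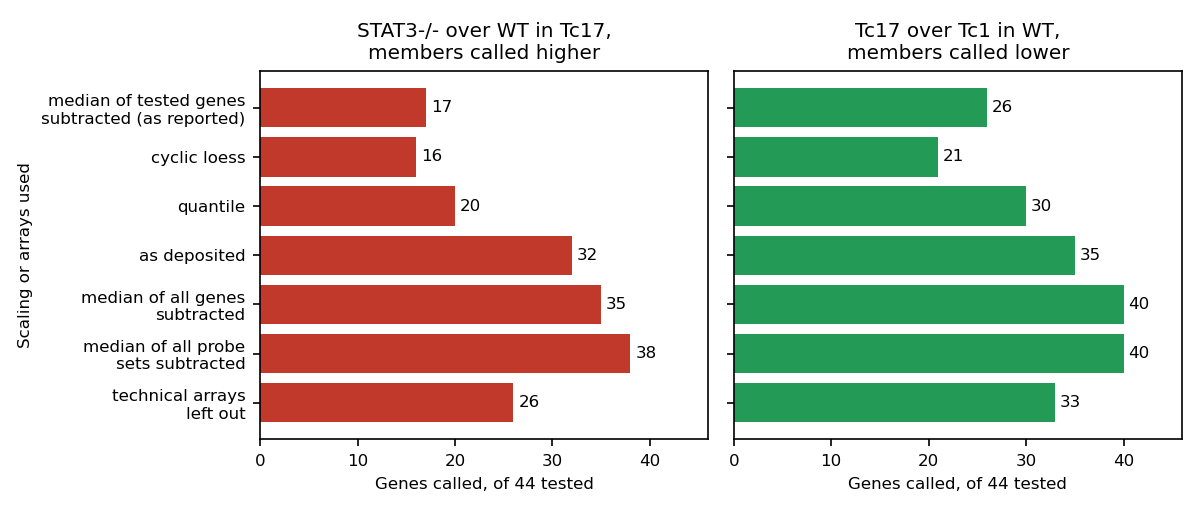
Number of the 44 genes called (x axis) by processing setting (rows), for STAT3-/- over WT in Tc17 (called higher) and for Tc17 over Tc1 in WT (called lower). The first comparison reads 16 with cyclic loess and 38 with the median of all probe sets removed. Counts with a sample left out are given in the text.

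Neighbouring parts of the same machinery were read from 7 further lists with 145 tested genes, of which 36 (24.8%) were called higher and 5 lower in Tc17 STAT3-/- cells, where 11.0% and 11.3% of all tested genes were. These lists too were chosen with earlier results of these data known. Among other mitotic kinases and centrosome genes 9 of 21 rose and 1 fell in Tc17 STAT3-/- cells. The phosphatase Cdc14a changed by 1.02 ± 0.12 (limma adjusted p = 5.4e-04). Wee1, the inhibitory kinase of CDK1, changed by 0.64 and Cdc14b, a relative of Cdc14a, by -0.61. Of inner centromere and kinetochore genes 8 of 27 rose and 0 fell, led by Pmf1 (0.64 ± 0.09, adjusted p = 0.00189), a subunit of the MIS12 complex, Cenpo (0.53) and Cenpn (0.49). Of other spindle and cytokinesis genes 7 of 24 rose and 0 fell, with Cenpj, a centriole protein, at 0.71 and the kinesins Kif14 and Kif18a at 0.69 and 0.55. Condensin and cohesin gave 3 of 20 higher (15.0%, near the share of all tested genes) and 0 lower, with Ncapg2, a condensin II subunit, at 0.84 ± 0.10 (adjusted p = 5.6e-04) and Cdca5, which encodes sororin, at 0.38. The calls of Wee1 and Cenpo were lost without 1 Tc17 STAT3-/- sample (replicate 2 for Wee1, adjusted p = 0.0591, and replicate 1 for Cenpo, 0.0844) and that of Cdca5 without either (up to 0.0919).

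The remaining lists cover the anaphase-promoting complex, transcription of cell cycle genes and G1. The anaphase-promoting complex had 2 of 17 genes higher (11.8%, against 11.0% of all tested genes) and 1 lower, with its subunit Cdc23 at 0.42, its inhibitor Fbxo5 at 0.37 and Anapc16 at -0.38. DREAM and E2F regulators had 4 of 23 higher (17.4%) and 1 lower, those higher being Lin9 (0.50), Rbl1 (0.43), Lin52 (0.42) and E2f8 (0.36). Of 14 tested G1 cyclins, CDKs and CDK inhibitors 3 rose and 2 fell: Cdkn2c, which encodes the CDK4 and CDK6 inhibitor p18, rose by 0.86 ± 0.11 (limma adjusted p = 6.6e-04), Cdk2 by 0.53 and Cdk6 by 0.50, while Cdkn2d, another inhibitor of that family, changed by -0.62. Without Tc17 STAT3-/- replicate 1 the calls of Cdc23, Lin9, Rbl1, Lin52, E2f8, Cdk2, Cdk6, Cdkn2d, Fbxo5 and Anapc16 were all lost, with adjusted p-values from 0.0541 to 0.227 over the samples whose removal ended a call. Rbl1, E2f8, Fbxo5 and Anapc16 were lost without Tc17 STAT3-/- replicate 2 too, Lin52, E2f8 and Cdkn2d without Tc17 WT replicate 2, Anapc16 and Fbxo5 without Tc17 WT replicate 1 or either Tc1 WT sample, and Fbxo5 without either Tc1 STAT3-/- sample. Median changes over these lists were 0.24, 0.19, 0.21 and 0.17 for the first 4 and 0.01, 0.12 and -0.00 for the last 3, against 0.31 for the mitotic members and -0.01 over all tested genes. In Tc1 cells limma called 0 of the 145 genes of the 7 lists, where 0.0913% of all tested genes were called, and 1 had an unadjusted p under 0.05, where 4.25% of all tested genes did.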

How the data were processed

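The deposited values are log2 intensities, 1 per probe set and array, made by the authors with RMA and Partek, per the submitters' processing notes. The role and version of either tool is not given in the sources used here. That the scale is log2 follows from the range of the values. RMA compresses differences near background, and precision is limited by the number of samples. A total of 41345 probe sets included 23521 with exactly 1 symbol in the platform annotation, 1814 with several and 16010 with none. A gene with several probe sets was read from that with the highest mean. Genes were tested if a group mean reached 5 on the log2 scale.

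Each array's median over the 9862 tested genes was subtracted. Each technical array entered as a mean with biological replicate 2, which has the same number. Means of 4 groups were fitted to the 8 samples by lmFit, contrasts.fit and eBayes of limma 3.58.1 (R 4.3.3), with 4 residual and 4.82 prior degrees of freedom. There were 5 contrasts, and p-values are two-sided and Benjamini-Hochberg adjusted over all tested genes, with calls at an adjusted p under 0.05. The script was tested on simulated data. Tables were handled with pandas 2.3.3 and, in R, data.table (1.17.8), and figures drawn with matplotlib 3.10.9 (Python 3.11.15). Alternatives changed the scaling, the filter on dim genes, the use of the technical arrays, the samples in the fit and the replicate block, and left out each sample in turn.

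All members could be named. Full statistics were kept to the 10 largest called changes per genotype contrast and 5 per other contrast, and names from each other list to its 4 largest called changes. Members and lists alike were chosen with earlier results of these data known. Promoters are RefSeq sequences of GRCm38.p6, matched by symbol.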

Additional observations from a re-analysis of the deposited data

Results flagged for a closer look

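Of the 145 tested genes of the neighbouring lists, 6 (4.1%) had a genotype effect that differed between the cultures, by limma's test of the Tc17 change minus the Tc1 change over all tested genes. Over all tested genes 6.51% were called in this contrast, 2.75% higher and 3.76% lower, so the share in these lists is near the background. For Cenpj, a centriole protein, the difference was 0.76 ± 0.12 (SE, adjusted p = 0.00767), from a change of 0.71 in Tc17 and -0.05 in Tc1 cells. It was called under all 24 alternatives that gave a value. For Pmf1, of the MIS12 complex, it was 0.75 ± 0.13 (adjusted p = 0.0115), with 0.64 in Tc17 and -0.11 in Tc1 cells. Cdkn2c, a CDK inhibitor, differed by 0.84 ± 0.15 (adjusted p = 0.0120), with 0.86 in Tc17 and 0.02 in Tc1 cells. Pmf1 and Cdkn2c were each called under 22 of 24 alternatives, and lost without Tc1 WT replicate 1 or Tc17 STAT3-/- replicate 2 (Pmf1, adjusted p up to 0.0693) and without Tc1 WT replicate 2 or Tc17 STAT3-/- replicate 1 (Cdkn2c, up to 0.0638).

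Ncapg2, of condensin II, differed by 0.71 ± 0.14 (adjusted p = 0.0196) and Cdc14a, a phosphatase, by 0.80 ± 0.17 (adjusted p = 0.0259), each called under 18 of 24 alternatives. Cenpo, of the inner kinetochore, differed by 0.64 ± 0.16 (adjusted p = 0.0486) and was called under 11 of 24. Each lost its call when either Tc17 STAT3-/- sample was left out (adjusted p up to 0.0936 for Ncapg2, 0.118 for Cdc14a and 0.181 for Cenpo), and without some of the other samples too. Between WT cultures all 6 were lower in Tc17 than in Tc1 cells, from -1.01 for Cdkn2c to -0.68 for Cdc14a. Between STAT3-/- cultures the changes were -0.18 (Ncapg2) to 0.12 (Cdc14a). The contrast that flagged these genes uses the same WT arrays, so their lower WT values are not a separate result.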

How the results depend on the processing

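Of the 25 alternatives, none turned a called change. Calls higher in Tc17 STAT3-/- cells numbered 17 with the settings used, 32 as deposited, 35 with the median of all genes removed and 38 with that of all probe sets removed; the share of all called genes that was higher was then 72.7%, 81.2% and 82.4%. They numbered 3 without the filter on dim genes, 4 with only the groups of the comparison in the fit, 26 without technical arrays and 2 to 19 leaving out 1 sample. Median changes were 0.43, 0.48 and 0.49 under the 3 scalings and 0.22 to 0.35 leaving out 1 sample (0.02 to 0.11 in Tc1). For the difference of genotype effects, 0 calls became 2, 5 and 5 under the scalings, 6 without technical arrays, 2 without that of Tc17 WT, 1 with the kind of array as a term (added after seeing the data) and 0 to 2 leaving out 1 sample. Its median was 0.34, 0.40 and 0.41, 0.28 without the Tc17 WT technical array, and 0.16 to 0.28 leaving out 1 sample; fitting only the groups of a comparison gives it no value. Lower calls between WT cultures numbered 40 and 40 under the last 2 scalings, 11 unfiltered, 15 with only the groups compared and 9 to 27 leaving out 1 sample, with medians of -0.50, -0.56 and -0.56, and -0.44 to -0.26. In STAT3-/- cells, 2 were lower in Tc17 without technical arrays. Fewer samples or more genes tested are part of some of these settings; otherwise the cause was not tested. The 2 samples per group and 4 residual degrees of freedom limit what could be called.

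With the replicate number as a block, 21 members were higher in Tc17 STAT3-/- cells and 31 lower between WT cultures, and 0 were called in the other comparisons. The labels do not say whether same-numbered samples share a culture, although WT and STAT3-/- cells were cultured together, so pairing by number was not assumed. Deviations of same-numbered samples correlated at 0.10 to 0.46, and at 0.00 to 0.17 over biological arrays alone.

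Reversed signs were all in changes not called. Leaving out 1 sample gave ranges in the Tc17 genotype comparison of -0.07 to 0.37 for Ccnb2, -0.05 to 0.45 for Foxm1, -0.00 to 0.25 for Kif23, -0.00 to 0.18 for Cenpe, -0.03 to 0.25 for Top2a, -0.07 to 0.14 for Mki67 and -0.14 to 0.04 for Anln, with the negative end without Tc17 WT replicate 1 for all but Anln. Between WT cultures they were -0.48 to 0.02 for Foxm1, -0.27 to 0.00 for Top2a, -0.17 to 0.00 for Anln and -0.09 to 0.07 for Pttg1. In the Tc17 genotype comparison Anln was 0.07, 0.12 and 0.13 under the scalings, 0.01 without technical arrays and 0.02 without that of Tc17 WT, and Pttg1 was 0.01, 0.06 and 0.07 under the scalings. Between WT cultures Pttg1 was 0.02 with cyclic loess and 0.00 with the technical array as its own sample, with or without the kind of array as a term.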
